A study of Mus musculus with 4 samples.

Results

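The autophagy genes described here are 38 genes that encode the core machinery of autophagosome formation, chosen by name from the 25124 genes of the deposited table and read in sorted mouse airway epithelial cells. All 38 were in the table, and all 38 had a mean above the floor for testing (25.8 normalised reads, or 1 CPM at the mean library total), as did 13810 of the 25124 genes. RNA sequencing was done on cells isolated from lung by fluorescence-activated cell sorting, from wild-type (WT) C57BL/6 mice. The tested mice had received house dust mite (HDM), an allergen extract that provokes airway inflammation, and an inhibitor of SCD1, the desaturase that makes monounsaturated fatty acids (2 samples). The vehicle mice had received HDM and dimethyl sulfoxide, DMSO (2 samples). Both groups were thus allergen-exposed, and the sources used here do not give the dose, the timing, the age of the mice or whether a sample is 1 mouse or a pool.

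Autophagy encloses cytoplasm in a double membrane and delivers it to the lysosome. The ULK kinase complex starts the process, a phosphatidylinositol 3-kinase complex around BECN1 marks the membrane, lipid is brought in by ATG2 and ATG9A, and a pair of ubiquitin-like conjugation reactions attach proteins of the LC3 and GABARAP families to it. Cargo receptors then tie ubiquitinated or damaged cargo to LC3 and GABARAP. In airway epithelium the pathway is known for its part in secretion of mucus by goblet cells, in cilia and in the response to oxidants. Transcript levels do not measure autophagic flux, which is controlled mostly through proteins.

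Most of the machinery showed no difference that passed the test, and 2 genes were called higher with the inhibitor. Rb1cc1, which encodes the ULK complex scaffold FIP200, was 2.75-fold higher, and Tax1bp1, which encodes a cargo receptor, was 1.45-fold higher. The other 36 genes had log2 fold changes between -0.62 and 0.48, and 15 of them lay within 0.1 of 0. The test was limma over all 13810 genes on the scale log2(normalised reads + 25.8), with Benjamini-Hochberg adjustment and a threshold of 0.05, and every log2 fold change is inhibitor over DMSO on that scale. By this rule 2 of the 38 genes (5.26%) were higher, where 1.36% of all tested genes were, and 0 were lower, where 0.427% were, or 1.79% in either direction. At an unadjusted p under 0.05 limma gave 2 higher and 3 lower, where 8.16% of all tested genes were higher and 5.92% lower. Together these were 13.2% of the 38 genes and 14.1% of all tested genes. Among the 38, edgeR called 1 higher and 0 lower, and DESeq2 2 higher and 0 lower. Tax1bp1 was not called in edgeR (adjusted p = 0.122). With a correction for transcript length and GC content it was not called in limma either (0.22, adjusted p = 0.424). Both genes called in limma lie in the fifth of annotated genes with the lowest GC content, where 4.80% were called higher.

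**Figure D1:**
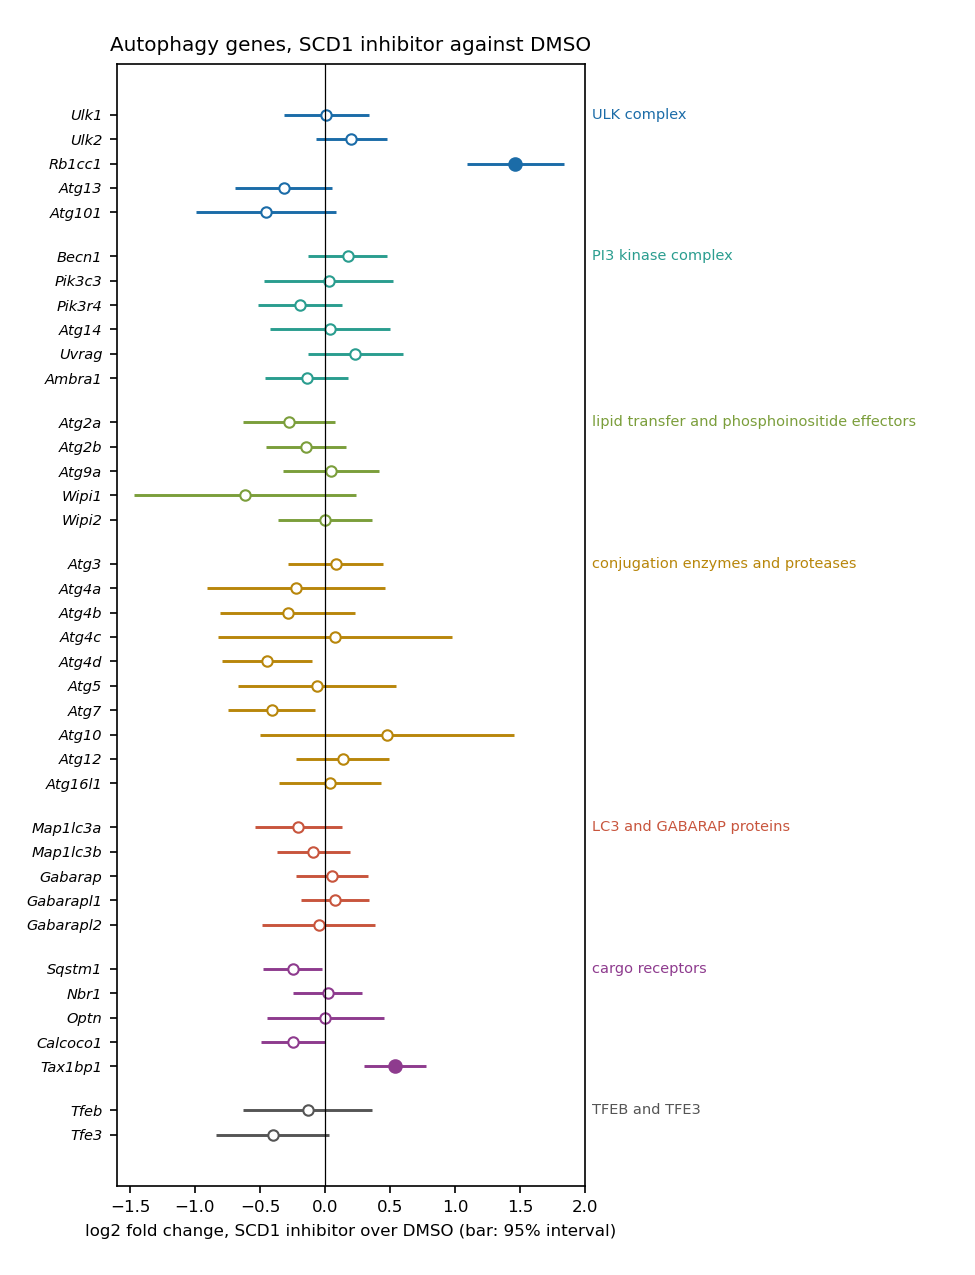
Log2 fold change of each of the 38 autophagy genes (x axis, inhibitor over DMSO), grouped by role, with the 95% interval of the limma fit as a bar and filled points for genes with an adjusted p under 0.05. Rb1cc1 at 1.46 and Tax1bp1 at 0.54 stand to the right of 0, and 34 of the other 36 intervals lie between -1 and 1.

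The coding start of Tax1bp1, which rose, is shown with those of Sqstm1 and Atg2a, since base composition moved with the log2 fold change across these libraries (described further on) and Tax1bp1 is poorer in G and C than the other two. Each line gives the first 150 coding bases, read 5′ to 3′ from the GENCODE M21 transcript of that gene with the longest coding sequence, with the start codon in capitals. Sqstm1 (chr11:50199366-50210827, minus strand, mm10) and Atg2a (chr19:6241668-6262335, plus strand) were picked for contrast after their values were seen.
Tax1bp1: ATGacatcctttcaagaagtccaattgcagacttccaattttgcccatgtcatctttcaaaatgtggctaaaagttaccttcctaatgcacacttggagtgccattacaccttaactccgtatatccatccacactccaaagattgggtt
Sqstm1: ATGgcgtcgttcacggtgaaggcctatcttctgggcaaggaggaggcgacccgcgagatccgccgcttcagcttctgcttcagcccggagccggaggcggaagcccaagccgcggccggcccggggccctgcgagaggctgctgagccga
Atg2a: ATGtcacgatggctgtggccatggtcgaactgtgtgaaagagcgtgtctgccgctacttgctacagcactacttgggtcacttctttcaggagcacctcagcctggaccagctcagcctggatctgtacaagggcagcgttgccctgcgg
Over the whole coding sequence, G and C made up 42.8% of Tax1bp1 (2445 bases), against 58.1% of Sqstm1 (1329 bases) and 59.7% of Atg2a (5745 bases). The last base of a codon was A or T in 59.5% of the codons of Tax1bp1, and in 36.8% and 31.7% of those of Sqstm1 and Atg2a.

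The libraries were close in depth, with 24591122 to 27013663 reads recovered from the values. The pan-epithelial markers (Epcam, Cdh1, Krt8, Krt18 and Krt19) summed to 92900 and 96915 normalised reads in the inhibitor libraries and to 96611 and 97713 in the DMSO libraries. Leukocyte markers summed to 498 to 1068 reads with the inhibitor and to 492 to 982 with DMSO, with S100a8 and S100a9 at 0 in all 4 libraries. The cells labelled airway epithelium also carried alveolar type 2 markers, 268131 to 324899 reads with the inhibitor and 416129 to 471201 with DMSO, of which 5 of 8 were lower in the test. Goblet markers summed to 19169 and 37185 reads with the inhibitor and 81030 and 106557 with DMSO, with 6 of 9 lower, club cell markers to 407707 and 606403 against 594591 and 693302, with 5 of 8 lower, and ciliated cell markers to 456999 and 463195 against 447710 and 450264, with 1 of 9 higher. Basal markers summed to 913 and 3072 reads with the inhibitor and 3898 and 5232 with DMSO, and 0 of 5 passed in limma (4 lower at an unadjusted p under 0.05, 2 in DESeq2 and 0 in edgeR). Alveolar type 1 markers summed to 16555 and 16615 against 18663 and 19375, with 1 of 5 lower. These counts of markers lower or higher are limma calls, where 0.427% of all tested genes were lower and 1.36% higher. edgeR called 1 goblet, 1 club, 0 alveolar type 2 and 0 alveolar type 1 markers lower, and 0 ciliated markers higher. DESeq2 called 4, 5, 7 and 1 of these lower, and 3 ciliated markers higher. Stromal markers summed to 4425 and 5176 against 2228 and 5099 (0 of 7 passed in limma, 2 at an unadjusted p under 0.05) and endothelial markers to 2505 and 3066 against 2566 and 6573 (0 of 6, 1 at an unadjusted p under 0.05), with 0 of either in edgeR or DESeq2. In sorted bulk RNA, fewer cells of a type and less RNA per cell cannot be told apart, and the part of these shifts in the autophagy values was not tested. The labels do not say that the samples came from separate mice, so p-values measure only the spread between these samples, which may be technical.

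The ULK complex held the largest difference. Rb1cc1 (chr1:6206197-6276648, plus strand, mm10) encodes FIP200, the scaffold that holds the ULK kinases, ATG13 and ATG101 together. It had 2300.0 and 2545 normalised reads in the inhibitor libraries and 958 and 775 in the DMSO libraries. Both inhibitor values lay more than 2-fold above both DMSO values, with a log2 fold change of 1.46 ± 0.17 (SE, limma adjusted p = 0.00163, n = 2 each). Only 52 of the 13810 tested genes had a larger one. edgeR (adjusted p = 0.0401) and DESeq2 (1.37e-09) also called it. The call was lost in limma without the trend, at 1.46 (adjusted p = 0.450), where 0 of all tested genes passed. With SCD1 inhibitor replicate 1 left out the value of Rb1cc1 was 1.53, and with SCD1 inhibitor replicate 2 left out 1.39. Rb1cc1 was called in neither of these fits, which assume that the lone inhibitor sample varies like the DMSO samples. An antisense gene, 4732440D04Rik, overlaps 558 exonic bases of Rb1cc1, and the sources used here do not say whether counting used strand.

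None of the other 4 genes of the complex passed in limma (0 also at an unadjusted p under 0.05, and 0 in edgeR and DESeq2). Atg101, which stabilises ATG13, had 469 and 536 reads in the inhibitor libraries and 800.2 and 607 in the DMSO libraries. Both inhibitor values were below both DMSO values, at a log2 fold change of -0.45 ± 0.25 (SE, limma adjusted p = 0.457). Atg13, the adaptor that brings the kinases to FIP200, had 1326 and 1336 reads against 1473 and 1886, again without overlap (-0.32 ± 0.17, SE, limma adjusted p = 0.445). The kinase gene Ulk2 had 3875 and 4242 reads with the inhibitor and 3343 and 3710.4 with DMSO, higher without overlap (0.20 ± 0.13, SE, limma adjusted p = 0.522). Ulk1, the other kinase, had 2016 and 1756 reads against 1897 and 1845, so its groups overlapped, and its 95% interval ran from -0.32 to 0.33 (limma adjusted p = 0.988). Per kilobase of transcript, Rb1cc1 had the lowest level of the 5 with DMSO, 114 normalised reads per kilobase, and 318 with the inhibitor, where the other 4 had 362 to 707 with the inhibitor and 359 to 614 with DMSO.

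**Figure D2:**
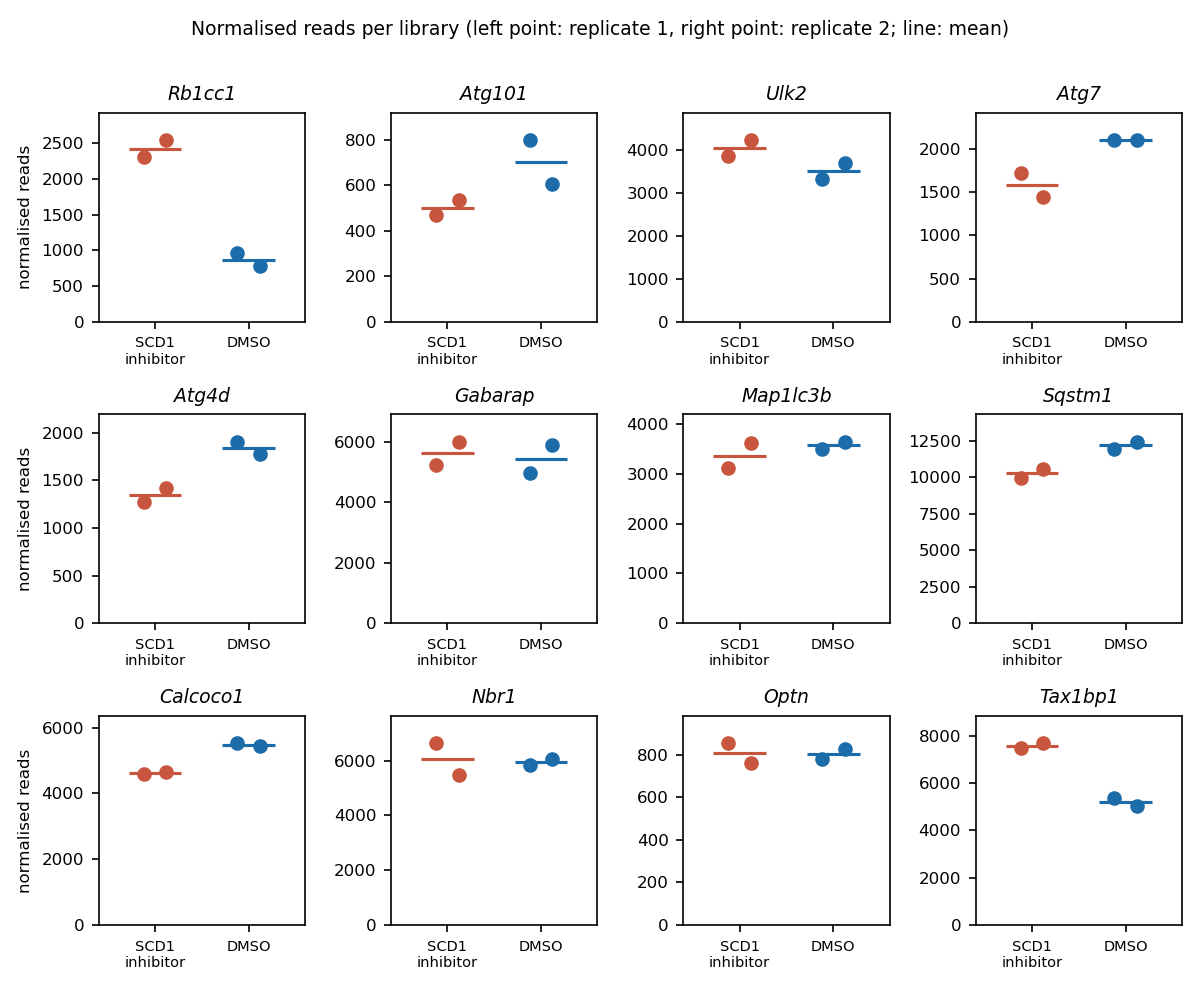
Normalised reads (y axis, from 0) of 12 autophagy genes in each library, inhibitor libraries left in red and DMSO libraries right in blue, with the group mean as a line. Rb1cc1 and Tax1bp1 are higher in both inhibitor libraries, Atg7, Atg4d, Sqstm1, Calcoco1 and Atg101 lie lower in both and Ulk2 higher in both without passing the test, and Gabarap, Map1lc3b, Nbr1 and Optn overlap.

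The phosphatidylinositol 3-kinase complex held no gene that passed in limma (0 of 6, with 0 also at an unadjusted p under 0.05, and 0 in edgeR and in DESeq2). Of its 6 genes, 4 had positive and 2 negative log2 fold changes, with a median of 0.033, beside 0.0056 over all tested genes. Pik3r4, the VPS15 subunit that anchors the lipid kinase, had 1963 and 1685 reads with the inhibitor and 2042 and 2119.8 with DMSO (-0.19 ± 0.15, SE, limma adjusted p = 0.627). Uvrag, which replaces ATG14 in a second form of the complex, had 1857 and 2099 reads against 1464 and 1918 (0.23 ± 0.17, SE, limma adjusted p = 0.590). Becn1, the scaffold of both forms, had 2874 and 2663 reads with the inhibitor and 2629 and 2281 with DMSO (0.17 ± 0.14, SE, limma adjusted p = 0.634). Pik3r4 lay lower and Becn1 higher in both inhibitor libraries, while Uvrag overlapped. Exons of Becn1 overlap those of Cntd1 on the other strand over 3104 bases, so its reads are uncertain. Uvrag is uncertain too, since stretches of its transcript match other genes at 95% identity or more, and Gm45187 overlaps 1589 of its exonic bases on the other strand. The lipid kinase gene Pik3c3, Atg14 and the regulator Ambra1 had log2 fold changes of 0.028, 0.037 and -0.14.

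Lipid transfer proteins and readers of the phosphoinositide mark likewise held 0 of 5 genes that passed in limma (0 at an unadjusted p under 0.05, 0 in edgeR and in DESeq2). The lipid transfer proteins Atg2a and Atg2b were both lower in both inhibitor libraries without passing. Atg2a had 1475 and 1264 reads against 1715 and 1610.4 with DMSO (-0.28 ± 0.16, SE, limma adjusted p = 0.489). Atg2b had 2002 and 1917 reads against 2215 and 2134 (-0.15 ± 0.14, SE, limma adjusted p = 0.702). Wipi1, a phosphoinositide reader, differed most between replicates of all 38 genes, with 278 and 127 reads in the inhibitor libraries and 303 and 305 in the DMSO libraries. Its log2 fold change of -0.62 ± 0.40 (SE, limma adjusted p = 0.536) was -0.12 (adjusted p = 0.982) without SCD1 inhibitor replicate 2 and -1.11 (adjusted p = 0.634) without SCD1 inhibitor replicate 1. Its paralog Wipi2, which recruits the ATG16L1 complex, had 1568 and 1541 reads against 1731 and 1391, and the scramblase gene Atg9a had 1308 and 1259 against 1239 and 1245. Atg9a is uncertain, since Gm29253 overlaps 1832 of its exonic bases on the same strand. The log2 fold changes of Wipi2 and Atg9a were 0.0021 and 0.046, and per kilobase Wipi1 had 60.7 reads with the inhibitor and 91.1 with DMSO, where Wipi2 had 301 and 302.

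The conjugation enzymes and proteases held 10 genes, 5 with positive and 5 with negative values, and 0 passed in limma, in edgeR or in DESeq2. At an unadjusted p under 0.05 limma gave 2, Atg4d and Atg7, both lower. Atg7, the E1-like enzyme that activates both ubiquitin-like systems, had 1726 and 1446 reads in the inhibitor libraries and 2105 and 2106 in the DMSO libraries. Both inhibitor values were lower, with a log2 fold change of -0.41 ± 0.16 (SE, limma adjusted p = 0.253) and a 95% interval of -0.74 to -0.07. Atg4d, one of 4 proteases that trim LC3 and GABARAP proteins, had 1271 and 1419 reads against 1907 and 1774 (-0.45 ± 0.16, SE, limma adjusted p = 0.218), and its exons overlap those of Kri1 over 1405 bases of the other strand.

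None of the other 8 conjugation genes had an unadjusted p under 0.05. Atg4b, the most active LC3 protease, had 1019.5 and 696 reads with the inhibitor and 1239 and 859 with DMSO, a difference within the spread of either group (-0.28 ± 0.24, SE, limma adjusted p = 0.655). Atg4a and Atg4c had -0.22 and 0.079, and Atg4a is uncertain because a copy, Atg4a-ps, matches it at 99.3% over 2115 bases. The E2-like enzymes Atg3 and Atg10 had 0.081 and 0.48. Atg10 was the least abundant of the 38, with 153 and 138 reads against 77.0 and 122, and its 95% interval of -0.50 to 1.45 sets no narrow limit. Atg5, its partner Atg12 and Atg16l1, which together form the complex that directs lipidation, had -0.064, 0.14 and 0.039.

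The LC3 and GABARAP proteins, which coat the autophagosome, had no member that passed in limma (0 of 5, 0 at an unadjusted p under 0.05, and 0 in edgeR and DESeq2), and in all 5 the libraries of the groups overlapped. By comparison, the groups did not overlap in 19 of the 38 genes, 7 higher and 12 lower, where 22.7% of all tested genes were higher and 22.2% lower without overlap, or 44.9% in either direction. Gabarap had 5229.6 and 6005 reads in the inhibitor libraries and 4957 and 5879.8 in the DMSO libraries, with a log2 fold change of 0.053 and a 95% interval of -0.22 to 0.33 (limma adjusted p = 0.899). Gabarapl1 had 4515 and 4806 reads against 4194 and 4652, with an interval of -0.18 to 0.34 (limma adjusted p = 0.841). Exons of 1700101I11Rik overlap 570 bases of Gabarapl1 on the other strand.

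Map1lc3b, the LC3 form used most as a marker of autophagosomes, had 3109 and 3604 reads with the inhibitor and 3484 and 3641 with DMSO (interval -0.37 to 0.19, limma adjusted p = 0.823). Map1lc3a had 2537 and 2916 reads against 2732 and 3603 (interval -0.54 to 0.13, limma adjusted p = 0.610). Gabarapl2 had 1271 and 981 reads against 1024 and 1301 (interval -0.48 to 0.39, limma adjusted p = 0.943). Map1lc3b and Gabarapl2 have 4 and 3 processed pseudogenes that match their transcripts at 96.1% identity or more over 280 bases or more. A share of the reads of Map1lc3b and Gabarapl2 may thus have been lost or moved. Those pseudogenes are not among the symbols of the deposited table. Per kilobase, Gabarap had the highest level with the inhibitor of all 38 genes, 4158 reads with the inhibitor and 4011 with DMSO, and Gabarapl1 (2561 and 2430) and Map1lc3a (2452 and 2849) stood well above Map1lc3b (811 and 861) and Gabarapl2 (671 and 693). The longest transcript of Map1lc3b is 1.57 times the length of its longest coding transcript, which lowers its level per kilobase.

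**Figure D3:**
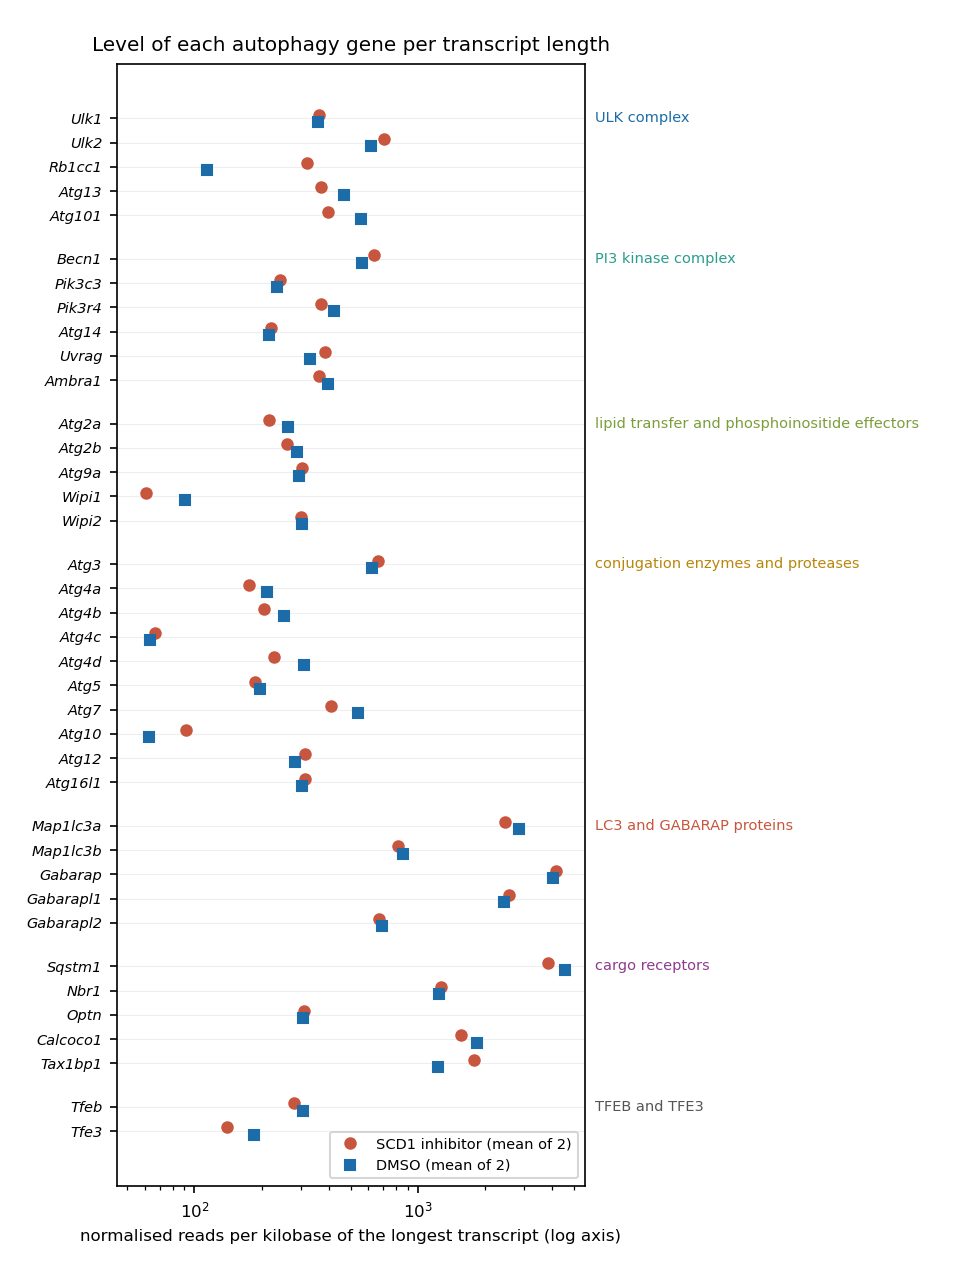
Mean normalised reads per kilobase of the longest transcript (x axis, log scale) of the 38 autophagy genes, by role, with inhibitor means as red circles and DMSO means as blue squares (n = 2 each). Gabarap and Sqstm1 have the highest levels, Wipi1, Atg4c and Atg10 the lowest, and the widest gap between groups is that of Rb1cc1, at 318 against 114.

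The 5 cargo receptors held 1 gene that rose and 0 that fell in limma, with 1 more, Sqstm1, lower at an unadjusted p under 0.05. Tax1bp1 (chr6:52713729-52766780, plus strand, mm10) encodes a receptor for ubiquitinated cargo that is known to bind FIP200, the product of Rb1cc1. It had 7471 and 7689 reads in the inhibitor libraries and 5375 and 5044 in the DMSO libraries. Both inhibitor values lay above both DMSO values and replicates of a group differed little, at a log2 fold change of 0.54 ± 0.11 (SE, limma adjusted p = 0.0309, n = 2 each). Among all tested genes 1348, or 9.76%, had a larger log2 fold change. DESeq2 called it (adjusted p = 0.000227) and edgeR did not (adjusted p = 0.122). With SCD1 inhibitor replicate 1 left out its value was 0.56, and with SCD1 inhibitor replicate 2 left out 0.52. Tax1bp1 was called in neither of these fits, which assume that the lone inhibitor sample varies like the DMSO samples. The limma call was also lost with no filter on low values, at 0.54 (adjusted p = 0.0758). It was also lost without the trend, at 0.54 (adjusted p = 0.455), where 0 of all tested genes passed. A correction for transcript length and GC content, described further on, ended it too and moved the value most, to 0.22 (adjusted p = 0.424). Gm43966 overlaps 160 exonic bases of Tax1bp1 on the other strand.

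The other receptors did not pass. Sqstm1, which encodes the receptor p62 and is itself degraded by autophagy, was the most abundant of the 38 genes in reads, with 9954 and 10569 with the inhibitor and 11939.9 and 12432 with DMSO. Both inhibitor values were lower, by 1.19-fold on average (-0.25 ± 0.11, SE, limma adjusted p = 0.309; edgeR 0.364 and DESeq2 0.128). Exons of Mrnip overlap 580 bases of Sqstm1 on the other strand. Calcoco1, a receptor for the endoplasmic reticulum and Golgi, had 4575 and 4653 reads against 5525 and 5431, also lower in both libraries (-0.25 ± 0.11, SE, limma adjusted p = 0.355). Nbr1, a partner of p62 in cargo condensates, had 6637 and 5484 reads against 5829 and 6076 (0.020 ± 0.12, SE, limma adjusted p = 0.961). Optn, a receptor for damaged mitochondria and bacteria, had 853 and 758 reads against 779.7 and 827 (0.0030 ± 0.21, SE, limma adjusted p = 0.997). The libraries of both groups overlapped for Nbr1 and Optn. Per kilobase, Tax1bp1 lay at 1784 reads with the inhibitor and 1226 with DMSO, so that it stood above Calcoco1 (1555) in the inhibitor libraries and below it (1846) in the DMSO libraries.

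Tfeb and Tfe3 encode the transcription factors that drive lysosomal and autophagy genes through the motif CACGTG when they enter the nucleus. Tfe3 had 991 and 770.0 reads in the inhibitor libraries and 1087 and 1246 in the DMSO libraries, lower without overlap (-0.40 ± 0.20, SE, limma adjusted p = 0.401). Tfeb had 580.0 and 728 reads against 715 and 715 (-0.13 ± 0.23, SE, limma adjusted p = 0.859), and its groups overlapped. Neither had an unadjusted p under 0.05. In RefSeq promoters (GRCm38.p6, 250 bases before to 50 after a gene's start), 32 of the 38 genes were matched, with 39 starts. CACGTG, which reads the same on both strands, was in 4 of the 39 windows (of Atg3, Atg5, Atg7 and Atg14), and in 7.15% of all 32851 promoter windows. TGACNNNGC, the core of the antioxidant response element bound by NRF2, was searched on both strands. It was in 4 of the 39 windows (of Tax1bp1, Ulk2, Atg13 and Map1lc3b), and in 12.4% of all windows. The window of Tax1bp1 that holds it (chr6:52713915-52714214, plus strand, GRCm38.p6) is printed because Tax1bp1 rose, with the 1 match in capitals, and such a match is a description of letters, not of binding. The other window of Tax1bp1, chr6:52713479-52713778, holds 0 matches.
Tax1bp1 promoter: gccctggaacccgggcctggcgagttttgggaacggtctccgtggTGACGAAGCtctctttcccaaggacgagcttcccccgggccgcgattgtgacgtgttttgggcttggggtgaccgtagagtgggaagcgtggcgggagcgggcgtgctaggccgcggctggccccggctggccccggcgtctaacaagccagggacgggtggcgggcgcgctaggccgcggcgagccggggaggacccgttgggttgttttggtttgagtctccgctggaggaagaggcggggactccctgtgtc
G and C made up 68.7% of that window, against 39.6% of the longest transcript of the same gene.

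Transcript composition moved with the log2 fold change across all genes, and both genes that rose lie at its low-GC end. When the 13644 tested genes with annotation were put into 5 equal bins by the GC content of their longest transcript, the bin of lowest GC (31.0% to 44.2%) had a median of 0.25 on the log2 scale, and 4.80% of its genes were called higher. The bin of highest GC had a median of -0.14 and 0.110% were called higher. Rb1cc1 (39.1% GC) and Tax1bp1 (39.6%) were in the lowest bin with Atg3, Atg4a, Atg4c and Atg10, and within that bin 28 of 2729 genes had a larger value than Rb1cc1 and 606 a larger value than Tax1bp1. Medians of the autophagy genes over the 5 bins, from low to high GC, were 0.28, 0.034, -0.089, -0.28 and -0.20 (6, 8, 9, 8 and 7 genes). Pearson's r between GC content and log2 fold change was -0.34 across all 13644 genes and -0.59 across the 38, as a description across genes, which share the same 4 libraries and are not independent. In 5 equal bins by transcript length, the longest bin, which holds Rb1cc1, had a median of 0.096 and 3.19% called higher. The shortest bin had a median of -0.012 and 0.550% called higher.

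After each library was corrected for a smooth trend on transcript length and GC content, Rb1cc1 was still called, at a log2 fold change of 1.01 (limma adjusted p = 0.00788), and Tax1bp1 was not, at 0.22 (limma adjusted p = 0.424). With that correction 1 of the 38 genes was higher and 0 lower (limma), where 0.637% and 0.420% of all tested genes were. The values of Sqstm1, Calcoco1, Atg7 and Tfe3 then were -0.14, -0.099, -0.32 and -0.37. The part of composition in the other values was not tested beyond this.

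**Figure D4:**
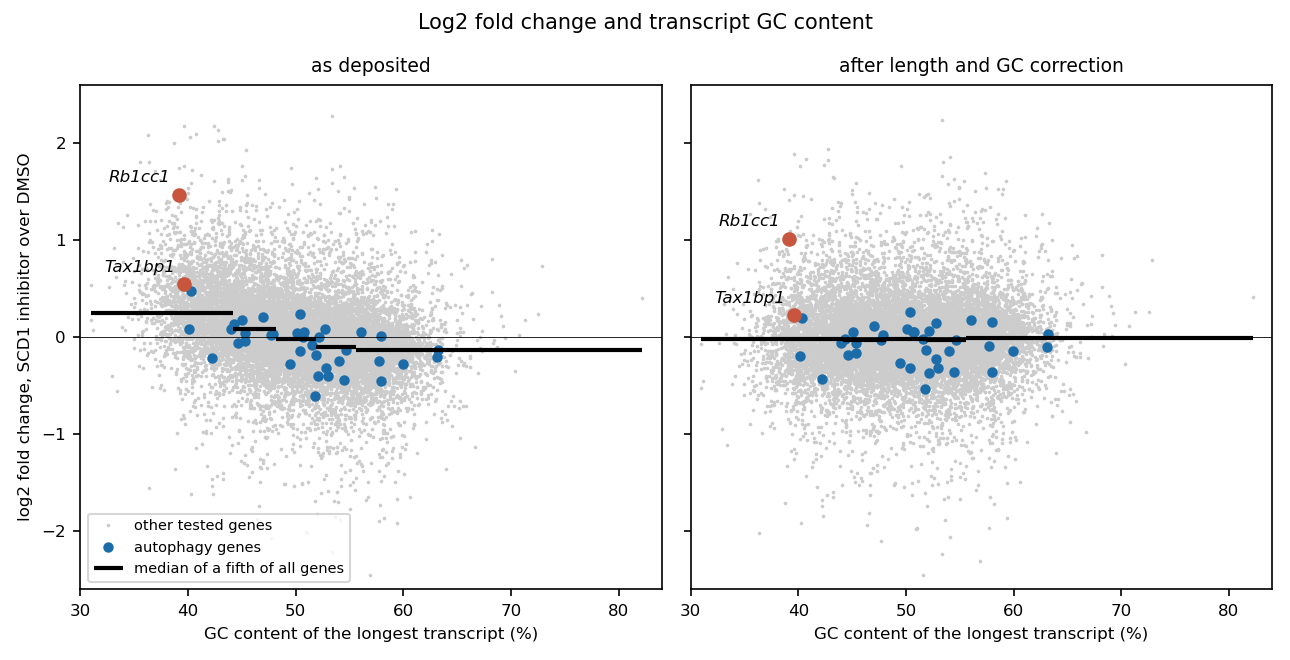
Log2 fold change (y axis, inhibitor over DMSO) against the GC content of the longest transcript (x axis, percent) for all tested genes (grey), the 38 autophagy genes (blue) and the 2 called genes (red), as deposited at left and after the length and GC correction at right, with black lines for the medians of 5 equal GC bins. At left the medians fall with GC from 0.25 to -0.14, and at right they lie near 0, with Rb1cc1 at 1.01 and Tax1bp1 at 0.22.

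**Figure D5:**
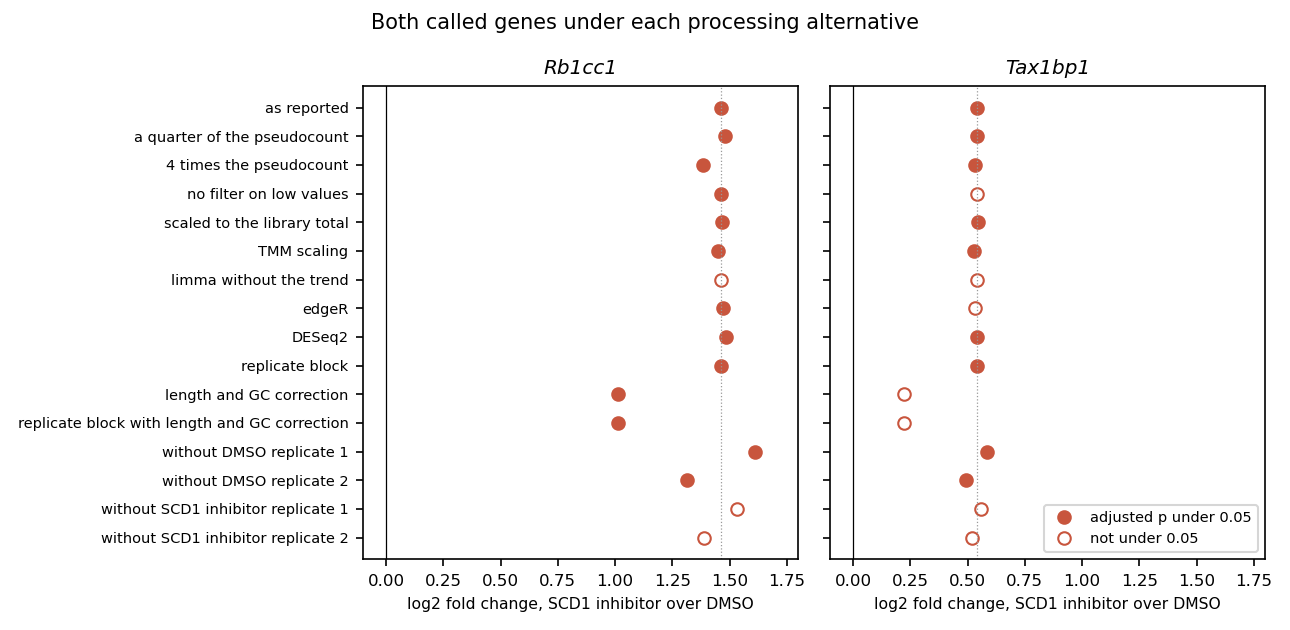
Log2 fold change (x axis, inhibitor over DMSO) of Rb1cc1 and Tax1bp1 as reported and under 15 processing alternatives (y axis), filled where the adjusted p was under 0.05. Rb1cc1 kept values of 1.01 to 1.61 and passed in 12 of 15, and Tax1bp1 had 0.22 to 0.58 and passed in 8 of 15. In limma without the trend 0 of all tested genes passed, and few did with an inhibitor library left out.

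Genes that work beside the core machinery held 2 calls, a share near that over all tested genes. Of 155 tested genes on 7 related lists, 1 was higher and 1 lower in limma, where 1.36% of all tested genes were higher and 0.427% lower, and the median log2 fold change was -0.085, beside 0.0056 over all tested genes. Sec62, a receptor for autophagy of the endoplasmic reticulum, was the 1 of 17 organelle receptors that passed, with 5631 and 5126 reads in the inhibitor libraries and 3977 and 3196 in the DMSO libraries (0.59 ± 0.13, SE, limma adjusted p = 0.0456). Retreg1, another receptor of that organelle, had 6188 and 5930 reads against 4783 and 5314, higher in both libraries without passing (0.26 ± 0.12, SE, limma adjusted p = 0.329). The call of Sec62 was lost in edgeR (adjusted p = 0.158), with the length and GC correction (0.38, adjusted p = 0.169) and when DMSO replicate 2 (0.43, adjusted p = 0.0765), SCD1 inhibitor replicate 1 (0.52, adjusted p = 0.554) or SCD1 inhibitor replicate 2 (0.66, adjusted p = 0.518) was left out.

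Lysosomal hydrolases and membrane proteins had the lowest median of the 7 lists, -0.24, with 29 of 35 genes negative and both inhibitor values below both DMSO values in 20 of 35. Over all tested genes 6810 of 13810 were negative and 22.2% were lower without overlap. At an unadjusted p under 0.05 limma gave 9 of 35 lower and 0 higher, where 5.92% of all tested genes were lower. On this list edgeR called 0 genes and DESeq2 called 2, both lower. Hexa, a subunit of the enzyme that breaks down gangliosides, was the 1 member called lower in limma. It had 1119 and 1238 reads with the inhibitor and 2002 and 1861 with DMSO (-0.70 ± 0.16, SE, limma adjusted p = 0.0468). That call was lost when SCD1 inhibitor replicate 1 (-0.63, adjusted p = 0.539) or SCD1 inhibitor replicate 2 (-0.77, adjusted p = 0.521) was left out, in edgeR (adjusted p = 0.128) and with the length and GC correction (-0.59, adjusted p = 0.0944). Npc1, which exports cholesterol from the lysosome, had 2880.0 and 2776 reads against 4053 and 3924 (-0.49 ± 0.12, SE, limma adjusted p = 0.0689). In limma it passed with the correction (-0.63, adjusted p = 0.0166) and with the replicate block (-0.49, adjusted p = 0.0127). It passed in DESeq2 (-0.50, adjusted p = 0.0155) and not in edgeR (adjusted p = 0.151). The value of Npc1 was -0.47 without DMSO replicate 1 and -0.52 without DMSO replicate 2. The list median with the correction was -0.17, beside -0.027 over all tested genes. In the same libraries 5 of 8 alveolar type 2 and 6 of 9 goblet markers were called lower in limma, and their part in the lysosomal values was not tested.

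The 16 genes of the vacuolar proton pump had a median of -0.22, with 10 negative, and 0 passed in limma (2 at an unadjusted p under 0.05, both lower, where 5.92% of all tested genes were), edgeR or DESeq2. Its genes of smallest p were the subunit Atp6v1b2 (-0.34 ± 0.12, SE, limma adjusted p = 0.208) and the accessory protein gene Atp6ap1 (-0.38 ± 0.14, adjusted p = 0.234). Nutrient sensing through mTORC1 and AMPK gave 0 limma, edgeR or DESeq2 calls among 41 genes (4 at an unadjusted limma p under 0.05, 2 in each direction, where 14.1% of all tested genes had one and 1.79% were called), with a median of -0.053. Tsc2, a brake on mTORC1, had 3659 and 3660.1 reads with the inhibitor and 4556 and 4828 with DMSO (-0.36 ± 0.12, SE, limma adjusted p = 0.183). Prkab2, a subunit of AMPK, had 662 and 632 reads against 516 and 280.5 (0.72 ± 0.30, SE, limma adjusted p = 0.299). Its value was 1.13 without DMSO replicate 1, the higher of the DMSO libraries, and 0.31 without DMSO replicate 2.

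Other genes of autophagosome formation (16 tested, median -0.024), of fusion with the lysosome (16 tested, median -0.074) and of transcriptional control (16 tested, median 0.00085) held 0 genes that passed in limma, edgeR or DESeq2, and 1 gene each at an unadjusted p under 0.05. Their genes of smallest p were Wac (0.39) and Wdr45 (-0.47), Plekhm1 (-0.38) and Vps33a (-0.44), and Crebbp (0.32) and Creb1 (0.40), with adjusted p between 0.254 and 0.432.

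Replicates of the autophagy genes lay as close as those of other genes. The median difference between replicates was 0.18 on the log2 scale with the inhibitor and 0.16 with DMSO over the 38 genes, and 0.20 and 0.26 over all tested genes, whose median level was lower (746 against 1537 normalised reads). Wipi1 differed most with the inhibitor (0.99) and Atg4c most with DMSO (0.71). Of the 36 genes that did not pass, 34 had 95% intervals within a 2-fold change in either direction, and the exceptions were Wipi1 and Atg10.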

How the data were processed

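RNA was measured in 4 samples. The authors deposited 1 table of normalised values, here the unit signal, in which the reads of each gene had been scaled by a single factor for its library: every value was a whole multiple of the smallest value of its library (100% within 0.01). For DMSO replicate 2 that value is 0.991, near 1, but its values, such as 774.988 for Rb1cc1, were whole multiples of it and not whole numbers. Its inverse, 1.009, matched the median-of-ratios size factor of that library, 1.009. The recovered reads, which edgeR and DESeq2 used, take the smallest value of each library as 1 read. HOMER, DESeq2 and the build mm10 are named in the submitters' processing notes, and the sources used here give no aligner, filter or strand setting. Libraries were made with a kit that keeps strand, per the labels' protocols.

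Values were tested as log2(value + 25.8) with limma 3.58.1 (intensity trend, group as the term, no block) in R 4.3.3 for 13810 genes of mean at least 25.8; 11314 were left out. edgeR 4.0.16 and DESeq2 1.42.0 used the recovered reads. At 2 samples per group, the limma and edgeR steps were tested on simulated data. Those data had the same extra spread for every gene and no GC trend, so they cannot show how the tests perform on these libraries. Symbols were matched to GENCODE M21 (GRCm38, which is mm10; 24497 by symbol and 6 by an older symbol), and the longest transcript gave length and GC content. Copies were sought with BLAST at 95% identity over 200 bases. Exons of 12 of the 38 genes overlapped exons of another gene, and not all of these are named above. Alternatives were other pseudocounts, scalings, tests, the replicate number as a block, a length and GC correction, and each library left out. PCR copies are not independent molecules, so depth covers counting error only. The members and lists were chosen with earlier results of these data known. Values per library are given for genes that passed, the 3 of smallest p in each role, all LC3, GABARAP and cargo receptor genes, and related lists are named by the genes that passed and the 2 of smallest p. Per-library values of Ulk1, Ulk2, Atg9a, Wipi2 and Atg10 were added after values were seen. Figures were made with matplotlib 3.10.9 in Python 3.11.15.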

Additional observations from a re-analysis of the deposited data

How the results depend on the processing

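Every alternative kept Rb1cc1 and Tax1bp1 positive. Numbers of genes called depended on the model of the spread and on single libraries. Over all genes, 188 were higher and 59 lower as reported; the counts were 51 and 13 with no filter on low values, 0 and 0 in limma without the trend (1423 at an unadjusted p under 0.05), 7 and 3 in edgeR, and 331 and 145 in DESeq2. They were 469 and 205 with the replicate block, 88 and 58 with the length and GC correction, 257 and 279 with the replicate block and that correction, and 0 to 616 higher and 5 to 179 lower with 1 library left out. Of the 38 genes, 2 were higher as reported, 1 with no filter, in edgeR, and with the length and GC correction with or without the replicate block, 0 in limma without the trend, and 0 to 2 with 1 library left out. Of the related genes, 1 was higher as reported, and 0 with the lower pseudocount, no filter, TMM scaling, no trend, edgeR or the correction; 1 was lower, and 0 with the lower pseudocount, no filter, scaling to the total, no trend or edgeR, 2 in DESeq2, 3 with the replicate block and 5 with the block and correction. Leaving out 1 library gave 0 to 4 higher and 0 to 5 lower. The median log2 fold change of the 38 was -0.023 as reported, -0.048 with the correction, with or without the block, and -0.086 to -0.027 with 1 library left out. The labels do not say whether equal replicate numbers share mice or days, so no pairing was taken. The correlation between the replicate differences of the groups (r = 0.073) cannot show whether they do. The block ended neither the call of Rb1cc1 nor that of Tax1bp1.

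Signs turned among values that did not pass. With the length and GC correction, with or without the replicate block, Atg3 had -0.20, Atg4c -0.059, Atg12 -0.024, Atg16l1 -0.062, Nbr1 -0.029, Tfeb 0.031 and Creb1 -0.048. With TMM scaling Ulk1 had -0.0022, Wipi2 -0.0082 and Optn -0.0072. In edgeR Wipi2 had -0.016 and Optn -0.0061, and in DESeq2 Wipi2 had -0.0062. With 1 library left out, ranges that held both signs were -0.090 to 0.11 for Ulk1, -0.20 to 0.25 for Pik3c3, -0.10 to 0.18 for Atg14, -0.15 to 0.16 for Wipi2, -0.0090 to 0.17 for Atg3, -0.55 to 0.11 for Atg4a, -0.28 to 0.44 for Atg4c, -0.23 to 0.11 for Atg5, -0.044 to 0.12 for Atg16l1, -0.19 to 0.017 for Map1lc3b, -0.069 to 0.18 for Gabarap, -0.23 to 0.14 for Gabarapl2, -0.12 to 0.16 for Nbr1, -0.079 to 0.085 for Optn and -0.29 to 0.025 for Tfeb. The cause of these changes was not tested. With 1 library left out, the lone sample is assumed to vary like the other group.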
